A study of Ursus arctos with 12 samples.

Results

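The glucocorticoid receptor gene NR3C1 and 9 genes of its pathway were followed in thigh muscle of brown bears between the active period and hibernation. The genes were chosen by symbol: FKBP5, KLF15, KLF9, TSC22D3, ZBTB16, HSD11B1, SGK1, CEBPB and CEBPD, with NR3C1 the 10 members. All 10 were among the 30249 genes counted, and 10 of 10 passed the filter of at least 30 reads summed over the libraries, which kept 17290 genes. The libraries were 6 from summer and 6 from winter, made from vastus lateralis biopsies of the same 6 free-ranging bears (Ursus arctos, 2 to 3 years old, numbered 1305, 1316, 1317, 1509, 1511 and 1512). The methods place the winter biopsy in February, in hibernation, and the summer biopsy in June of the same year, and each animal was captured and anaesthetised both times. No bear received a treatment that the others did not, season was the only factor, and circulating cortisol was not analysed here. A biopsy holds every cell type of the muscle, so fewer cells of a type and less RNA per cell cannot be told apart.

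Cortisol and related steroids enter cells and bind the glucocorticoid receptor, which is held ready in the cytosol by heat shock proteins and their partners. The bound receptor moves to the nucleus, where it switches on genes such as FKBP5, TSC22D3 and the Krüppel-like factors and restrains many inflammatory genes. In skeletal muscle prolonged glucocorticoid exposure is known for driving protein breakdown and the release of amino acids, and fasting raises the hormone in many mammals.

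In winter NR3C1, FKBP5 and ZBTB16 rose and KLF15 fell, while the other 6 members did not pass the test. The rises were 1.31-fold for NR3C1, 1.92-fold for FKBP5 and 1.5-fold for ZBTB16, and the summer level of KLF15 was 2.53-fold its winter level. Thus 4 of the 10 members were called at an adjusted p below 0.05 in edgeR's quasi-likelihood test, 3 higher and 1 lower, where 39.5% of all genes tested were called, 19.6% higher and 19.9% lower. The share of members called was therefore close to that of all genes. The study set limits for differentially expressed genes in DESeq2 (adjusted p under 0.01, with a fold of over 1.3 or under 0.77). Applied to the edgeR fit, they were passed by 24% of all genes, and KLF15 was the one member called. In the DESeq2 fit made here, NR3C1 (log2 fold change 0.3975, adjusted p = 0.00571) and FKBP5 (0.9471, 0.00144) passed them, as did KLF15 (−1.337, 0.000143). The median log2 fold change was 0.01 over the members and −0.00 over all genes tested.

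**Figure D1:**
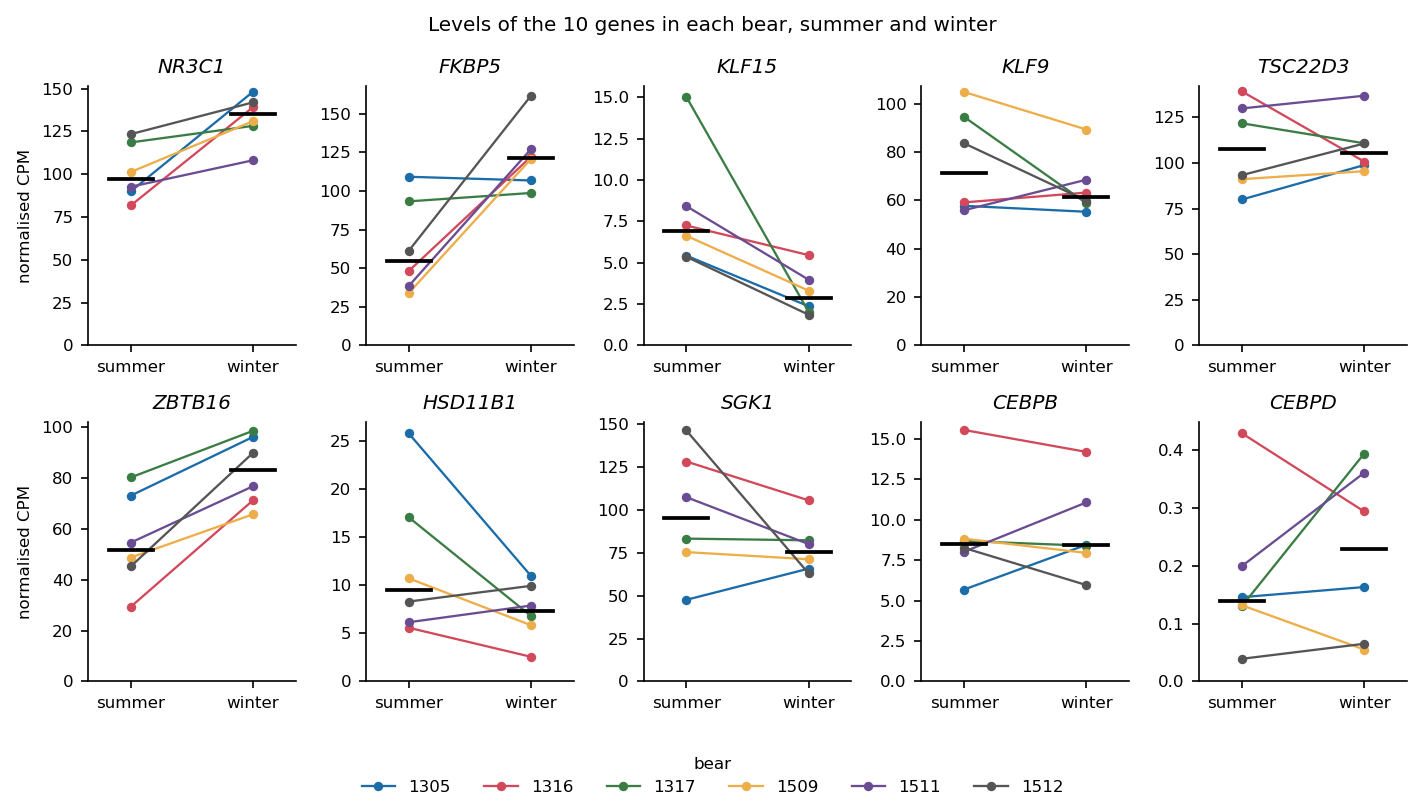
Normalised CPM (y axis, from 0) of each gene in the summer and winter library of each of the 6 bears, 1 line per bear, with a black bar at the median of each season. The lines of NR3C1 and ZBTB16 climbed in 6 of 6 bears, those of KLF15 dropped in 6 of 6, and FKBP5 was nearly level in bears 1305 and 1317.

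NR3C1 encodes the receptor itself. In summer it lay at 81.7 to 123 CPM (read counts scaled to a common library size), with a median of 97.0, and in winter at 108 to 148 CPM, with a median of 135. The winter range began above most summer libraries, but the seasons overlapped, because bears 1317 and 1512 already reached 119 and 123 CPM in summer. In log2 CPM the mean went from 6.65 ± 0.23 to 7.05 ± 0.16 (SD over the 6 bears). The fitted log2 fold change was 0.39 (SE, the standard error of the fit, 0.12; adjusted p = 0.0169). Every bear had more in winter, from 0.11 in bear 1317 to 0.77 in bear 1316 on the log2 scale. The call was lost when counts were scaled by library totals (adjusted p = 0.103), without bear 1305 (0.0825) and without bear 1316 (0.0591), and over the alternatives the adjusted p ran from 0.00571 to 0.103.

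FKBP5 encodes a partner of heat shock protein 90 that lowers the receptor's affinity for its hormone, and it is itself a classical glucocorticoid-induced gene. Summer levels spread widely, from 33.8 to 109 CPM with a median of 54.6, whereas winter levels lay at 98.7 to 162 CPM with a median of 121. Bears 1305 and 1317, at 109 and 93.3 CPM in summer, were already near the winter range, and the other bears were at 33.8 to 61.1 CPM. The log2 fold change was 0.94 (SE 0.26, adjusted p = 0.0110). It was higher in winter in 5 of 6 bears, where bear 1305 moved by −0.03 and bear 1317 by 0.08, and the remaining 4 by 1.34 to 1.84. FKBP5 was called under all 14 alternatives, with an adjusted p from 3.25e-05 to 0.0469.

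ZBTB16, also called PLZF, encodes a zinc finger transcription factor that glucocorticoids induce in several tissues. It was at 29.3 to 80.2 CPM in summer (median 51.6) and at 65.7 to 98.5 CPM in winter (median 83.3). The 2 bears with the highest summer levels of ZBTB16, 1317 and 1305, were also the 2 highest for FKBP5 and for HSD11B1 in summer. Its log2 fold change was 0.59 (SE 0.20, adjusted p = 0.0334), and the rise in each of the 6 bears lay between 0.30 and 1.28. The call ended with library totals (adjusted p = 0.101), without bear 1511 (0.0645) and without bear 1512 (0.108), and the adjusted p ran from 0.000122 to 0.108 over the alternatives.

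KLF15 is a Krüppel-like factor that drives amino acid breakdown and lipid use in muscle and responds to glucocorticoids and feeding state. It was counted at 36 to 346 reads per library. Summer levels ran from 5.36 to 15.0 CPM (median 6.94) and winter levels from 1.86 to 5.46 CPM (median 2.84). The summer library of bear 1317 was the highest at 15.0 CPM and the winter library of bear 1316 the highest of its season at 5.46 CPM, which just overlapped the lowest summer libraries. The log2 fold change was −1.34 (SE 0.31, adjusted p = 0.00394), from −2.84 in bear 1317 to −0.40 in bear 1316, lower in 6 of 6. KLF15 was called under each of the 14 alternatives (adjusted p 1.51e-05 to 0.0187), and without bear 1317 its log2 fold change was −0.97.

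KLF9, a Krüppel-like factor that glucocorticoids and thyroid hormone induce, was not called. It lay at 55.9 to 105 CPM in summer (median 71.4) and at 55.3 to 89.3 CPM in winter (median 61.5), with 4 of 6 bears lower in winter. Its log2 fold change was −0.21 (adjusted p = 0.370), and the 95% interval of the fit ran from −0.58 to 0.17. That interval leaves out a fall as large as the fitted one of KLF15, although the difference between the 2 genes was not tested.

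TSC22D3, whose product GILZ mediates part of the anti-inflammatory action of glucocorticoids, was level in the seasonal means. Summer libraries lay at 80.0 to 139 CPM (median 108) and winter libraries at 95.5 to 137 CPM (median 106). The log2 fold change was −0.00 with a 95% interval of −0.31 to 0.30 (adjusted p = 0.985), and 4 of 6 bears were higher in winter. The sign of so small a value turned under 8 of the 14 alternatives, where the log2 fold change stayed between −0.09 and 0.10.

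SGK1, a kinase that glucocorticoids induce and that regulates ion transport and cell survival, was lower in winter in 5 of 6 bears without passing the test. Summer levels spanned 47.5 to 146 CPM (median 95.3) and winter levels 62.9 to 105 CPM (median 75.6). The log2 fold change was −0.33 (95% interval −0.81 to 0.15, adjusted p = 0.263), and bear 1512 alone showed a drop of over 2-fold, at −1.22 on the log2 scale. Without that bear the log2 fold change was −0.12.

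HSD11B1 encodes the enzyme that turns inactive cortisone back into cortisol inside the cell. It was at 5.58 to 25.8 CPM in summer (median 9.5) and at 2.56 to 11.0 CPM in winter (median 7.35). The bears divided: 4 were lower in winter, by 0.86 to 1.31 on the log2 scale, while bears 1511 and 1512 were higher by 0.35 and 0.26. The log2 fold change of −0.74 (SE 0.39, adjusted p = 0.150) was not called, and its 95% interval ran from −1.58 to 0.10. With the bear as a replicate block it was called in DESeq2 (adjusted p = 0.0248) but not in edgeR (0.0523), within 0.0248 to 0.327 over the alternatives.

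CEBPB and CEBPD encode C/EBP transcription factors that act early in hormone and stress responses. CEBPB was at 5.68 to 15.6 CPM in summer (median 8.47) and at 5.96 to 14.2 CPM in winter (median 8.42), with bear 1316 the highest in both seasons. Its log2 fold change was 0.03 (95% interval −0.49 to 0.54, adjusted p = 0.939), lower in winter in 4 of 6 bears. CEBPD had 1 to 9 reads per library and 52 in all, or 0.0391 to 0.429 CPM in summer and 0.0552 to 0.394 in winter. How well the annotation used for counting covers CEBPD was not tested, so the low count is not a measure of its expression. Its log2 fold change of 0.28 had a 95% interval of −0.96 to 1.52 (adjusted p = 0.723). 

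**Figure D2:**
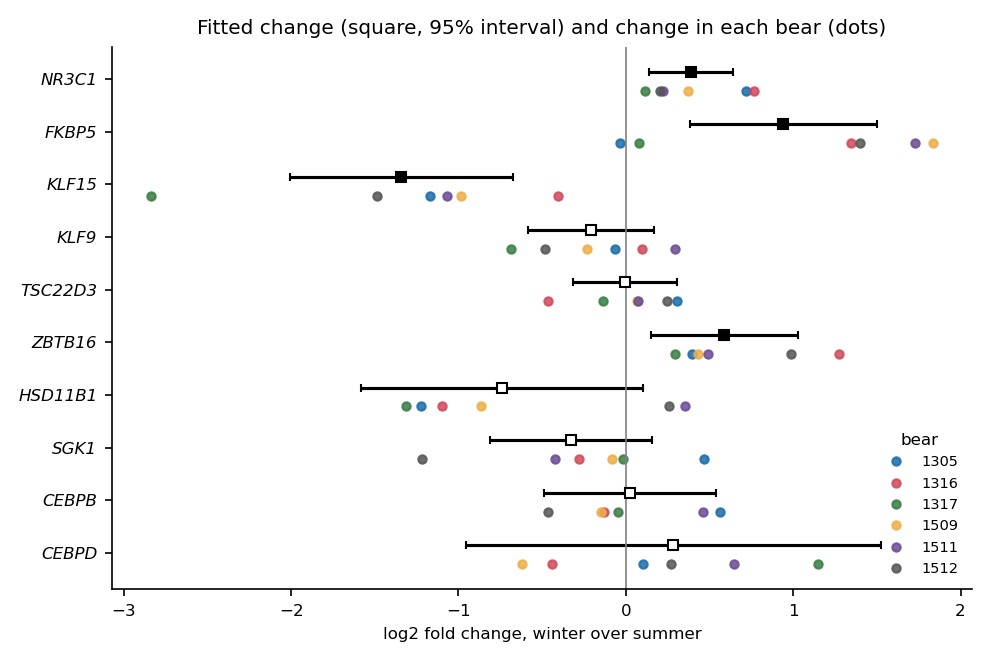
Log2 fold change of winter over summer (x axis) for each gene, with squares for the edgeR fit (filled when the adjusted p was below 0.05), bars for its 95% interval and dots for the 6 bears. NR3C1, FKBP5 and ZBTB16 lie above 0 and KLF15 below 0, with the bear changes of KLF15 spread from −2.84 to −0.40.

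The members varied among themselves in how the bears behaved. A change of the same direction in all 6 bears was seen for 3 of 10 members (NR3C1, ZBTB16 and KLF15), against 37.4% of all genes tested, 18.4% higher and 19% lower. The summer and winter libraries overlapped for each of the 10, so 0 of 10 were separated, whereas 17.3% of all genes were. For 8 of the 10 members the SD between bears in log2 CPM was smaller in winter than in summer, which held for 44% of all genes. The median SD of the members was 0.53 in summer and 0.26 in winter, and that of all genes 0.32 and 0.35. Among the 10, FKBP5 narrowed most, from 0.68 to 0.24, and SGK1 went from 0.59 to 0.27. KLF15 (0.55 and 0.59) and CEBPD (0.66 and 0.78) were the exceptions. This contrast in spread is a description and was not tested.

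The genes with the nearest profiles were sought by the root mean square difference of log2 CPM over the 12 libraries, after each gene was centred on its own mean, among 10336 genes with symbols. For NR3C1 they were SERINC1 (0.0699), HELZ (0.0763) and ICE1 (0.0783), where NR3C1 itself varied by 0.271 about its mean. RBM43 (0.348), JADE1 (0.372) and ATP1B4 (0.386) were nearest to FKBP5, which varied by 0.707. KLF15, varying by 0.841, was nearest to ESRRB (0.324), an orphan nuclear receptor of the estrogen-related family, then to MINDY4 (0.348) and ABCB8 (0.393). The profile of KLF9 was nearest to TRANK1 (0.142), to NR3C2 (0.163), the mineralocorticoid receptor that also binds cortisol, and to GFM2 (0.173), with KLF9 at 0.317.

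Around these members, 112 genes of the pathway were gathered in 8 lists, and 99 were tested. Of the 99, 17 were higher and 20 lower in winter, 37.4% in all, close to the 39.5% of all genes, and their median log2 fold change was −0.13.

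Receptor chaperones and their partners gave the most falls. Of 16 tested, 8 were lower and 2 higher, where 19.9% of all genes were lower and 19.6% higher. The median log2 fold change of the list was −0.41. FKBP4, the FKBP5 relative that aids transport of the receptor to the nucleus, was at 45.4 to 73.8 CPM in summer and at 28.9 to 35.3 in winter, with no overlap. Its log2 fold change of −0.93 (SE 0.12, adjusted p = 9.08e-05) was opposite in sign to that of FKBP5, and it was lower in 6 of 6 bears. PPID, another immunophilin of the receptor complex, had a log2 fold change of −1.44 (SE 0.21, adjusted p = 0.000142). DNAJA1, an HSP40 co-chaperone, had one of −1.46 (SE 0.34, adjusted p = 0.00368). The 2 that rose were HSP90AB1, an HSP90 that holds the receptor, at 0.73 (SE 0.13, adjusted p = 0.000778), and ST13, at 0.38 (SE 0.12, adjusted p = 0.0213). The call of ST13 ended with library totals (adjusted p = 0.0521) or without bear 1316, 1317 or 1512 (0.0502 to 0.0579).

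Genes of steroid supply were set beside HSD11B1. HSD11B2, which inactivates cortisol to cortisone and so opposes HSD11B1, was counted at only 12 to 96 reads per library. It went from 1.31 to 3.83 CPM in summer down to 0.588 to 1.02 in winter, a log2 fold change of −1.79 (SE 0.30, adjusted p = 0.000492), lower in 6 of 6 bears. H6PD, which makes the cofactor that HSD11B1 uses, had a log2 fold change of −0.47 (SE 0.22, adjusted p = 0.0940) and was lower in 5 of 6 bears. NR3C2 was at 7.50 to 14.9 CPM in summer and at 8.65 to 12.7 in winter, with a log2 fold change of −0.13 (95% interval −0.51 to 0.25, adjusted p = 0.577).

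Coregulators, the proteins through which nuclear receptors act on chromatin, were higher for 5 of 14 and lower for 1. The shares over all genes were 19.6% higher and 19.9% lower, 39.5% in either direction. The steroid receptor coactivators NCOA1 and NCOA2 rose by 0.71 (SE 0.10, adjusted p = 9.50e-05) and 0.64 (SE 0.10, adjusted p = 0.000353) on the log2 scale, without overlap between seasons. CREBBP, a histone acetyltransferase, rose by 0.72 (SE 0.18, adjusted p = 0.00517). CARM1, an arginine methyltransferase, was the one lower, at −0.58 (SE 0.13, adjusted p = 0.00330), and 2 were lower without bear 1316.

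**Figure D3:**
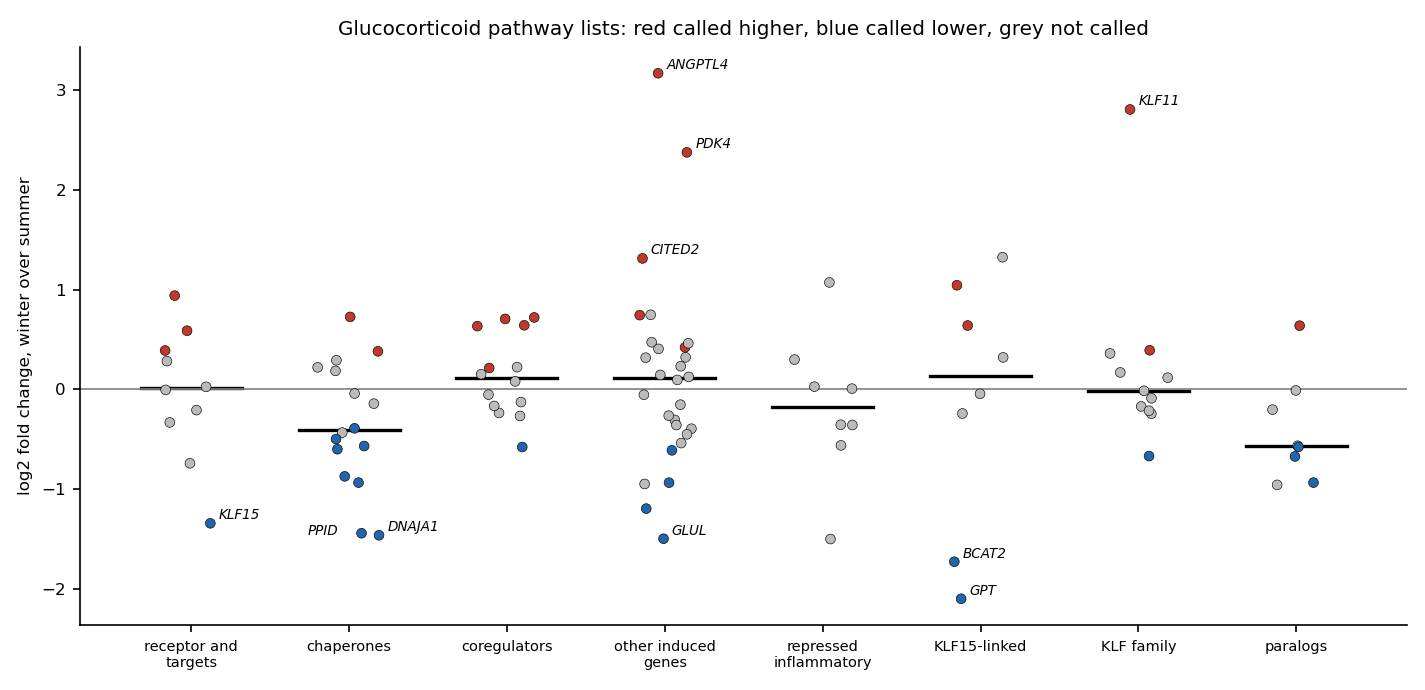
Log2 fold change of winter over summer (y axis) for each tested gene of the 10 chosen genes and of 7 pathway lists, red where called higher, blue where called lower and grey where not called, with a bar at the median of each list. The lists of induced genes and Krüppel-like factors hold the largest rises, of ANGPTL4 (3.17) and KLF11 (2.81).

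Other genes that glucocorticoids are known to induce were called higher for 5 of 28 tested and lower for 4, where 19.6% and 19.9% of all genes were. With the replicate block the counts were 6 and 6 in edgeR and 8 and 6 in DESeq2. ANGPTL4, which inhibits lipoprotein lipase, was at 0.313 to 4.2 CPM in summer and at 6.89 to 22.8 in winter. Its log2 fold change was 3.17 (SE 0.53, adjusted p = 0.000466), and 4.01 without bear 1316, whose own change was 0.70. PDK4, which holds back glucose oxidation, rose by 2.38 (SE 0.57, adjusted p = 0.00454), from 18.9 to 296 CPM in summer to 504 to 750 in winter. The rise of PDK4 was 3.00 in edgeR with the replicate block. CITED2, a transcriptional coregulator, was higher in 5 of 6 bears at 1.31 (SE 0.37, adjusted p = 0.0124), and not called without bear 1317 (adjusted p = 0.0586). Those that fell included GLUL, glutamine synthetase, from 465 to 877 CPM in summer to 185 to 266 in winter, a log2 fold change of −1.5 (SE 0.16, adjusted p = 2.28e-05). SLC19A2, a thiamine transporter, was lower at −1.19 (SE 0.17, adjusted p = 0.000156). MSTN, the growth inhibitor myostatin, was lower at −0.93 (SE 0.32, adjusted p = 0.0308), and not called without bear 1305, 1316, 1317 or 1511 (0.0686 to 0.101).

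The muscle atrophy ligases TRIM63 and FBXO32, which glucocorticoids raise in wasting muscle, were not called. For TRIM63 the log2 fold change was −0.15 (95% interval −0.59 to 0.28, adjusted p = 0.574). FBXO32 lay at 61.7 to 890 CPM in summer and at 443 to 773 in winter, with a log2 fold change of 0.23 (95% interval −0.79 to 1.26, adjusted p = 0.726) and 3 of 6 bears higher. Its largest change was 3.36, in bear 1305, and edgeR with the replicate block gave a log2 fold change of 0.64 (adjusted p = 0.288). FOXO1, a transcription factor upstream of these ligases, had 0.13 (95% interval −0.16 to 0.41, adjusted p = 0.474). FOXO3, listed with FOXO1 among the other glucocorticoid-induced genes, was called higher in winter. DDIT4, an inhibitor of mTOR signaling, had 0.15 (95% interval −0.57 to 0.86, adjusted p = 0.755), and 0.24 (SE 0.13, adjusted p = 0.154) in edgeR with the replicate block.

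PER1, a clock gene with a glucocorticoid response element, ranged over 9.31 to 57.5 CPM in summer and 18.4 to 69.2 in winter, and its log2 fold change of 0.32 was not called (adjusted p = 0.551). DUSP1, a phosphatase that restrains MAP kinases, ranged over 38.4 to 149 and 23.4 to 117 CPM, with −0.36 (adjusted p = 0.511). Immediate early genes, which respond within minutes to handling and sampling as well as to hormones, also spread widely. Their summed level was 168 to 642 CPM in summer and 100.04 to 588 in winter. Of 9 tested, 0 were called in either direction in edgeR and in DESeq2. Of all genes tested in edgeR, 39.5% were called, 19.6% higher and 19.9% lower. The 9 still leaned lower in winter, with −0.74 as the middle log2 value of their changes. At an unadjusted p below 0.05 in edgeR, 2 were lower and 0 higher, beside 4258 lower and 4138 higher of all 17290 genes. Lower calls numbered 2 in edgeR with the replicate block, 3 in DESeq2 with that block and 1 in limma voom. Leaving out bear 1317 gave 4 lower. The part of the capture in the levels of SGK1, CEBPB, PER1 and DUSP1 was not tested.

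Inflammatory genes that glucocorticoids restrain were scarcely present. Of 14 listed, 8 were tested and 5 had fewer than 30 reads in all, among them IL6 and IL1A. In edgeR 0 were higher and 0 lower, where 19.6% of all genes tested were higher and 19.9% lower. At an unadjusted p below 0.05 in edgeR, 1 was lower, as were 4258 of all 17290 genes. The calls were 1 lower in DESeq2, 1 lower in edgeR with the replicate block, 1 lower without bear 1317 and 0 in limma voom. The summed level was 18.6 to 28.0 CPM in summer and 14.9 to 26.7 in winter.

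Of the 8 genes linked to KLF15 that were tested, 2 were lower, 2 higher and 4 not called. Over all genes 19.9% were lower and 19.6% higher. BCAT2, which starts the breakdown of branched-chain amino acids, went from 17.5 to 37.2 CPM in summer to 5.99 to 10.2 in winter, a log2 fold change of −1.73 (SE 0.18, adjusted p = 1.53e-05). GPT, alanine aminotransferase, fell by 2.1 (SE 0.17, adjusted p = 4.08e-06) on the log2 scale. Both were lower in 6 of 6 bears, as were KLF15 and 19% of all genes tested, and a link to KLF15 was not tested. The fatty acid oxidation genes SLC25A20, the carnitine carrier, and CPT1B, the muscle carnitine palmitoyltransferase, rose by 1.05 (SE 0.14, adjusted p = 9.03e-05) and 0.64 (SE 0.14, adjusted p = 0.00306), in 6 of 6 bears each.

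Of the 11 other Krüppel-like factors tested, 2 were higher and 1 lower, where 19.6% of all genes were higher and 19.9% lower. KLF11 was at 8.49 to 24.9 CPM in summer and at 85.4 to 109 in winter, a 7.0-fold rise (log2 fold change 2.81, SE 0.22, adjusted p = 3.36e-06) in 6 of 6 bears, while KLF15 fell. KLF13 was lower at −0.67 (SE 0.13, adjusted p = 0.00131). KLF10 was higher at 0.39 (adjusted p = 0.0373) but was not called with library totals (0.123), without the filter (0.0556) or without bear 1305, 1316, 1509 or 1511 (0.0566 to 0.146).

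Paralogs of the other members gave 1 higher and 3 lower of 8 tested, where 19.6% of all genes were higher and 19.9% lower. CEBPG, a C/EBP relative, was higher in 5 of 6 bears at 0.64 (SE 0.20, adjusted p = 0.0210), a call lost with library totals (0.0527) and without bear 1305, 1316, 1317 or 1512 (0.0581 to 0.0900). TSC22D4 was lower at −0.67 (SE 0.19, adjusted p = 0.0127), and FKBP1A was lower at −0.58 (SE 0.09, adjusted p = 0.000290). The remaining lower paralog was FKBP4, which was also counted among the receptor chaperones. CEBPA, the adipocyte and liver C/EBP, varied too much for a call (−0.56, 95% interval −2.15 to 1.02, adjusted p = 0.570), with −1.59 without bear 1511 and 0.79 without bear 1316. Its highest libraries were summer 1316 and winter 1511, at 7.73 and 4.63 CPM, and these were also the libraries with the highest summed adipocyte markers of their seasons, 1635 and 788 CPM.

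Depth was 16742406 to 32140160 reads per library. Muscle fibre markers (9 tested, among them ACTA1 and CKM) summed to 116551 to 192108 CPM in summer and to 124298 to 166585 in winter, with TTN and NEB higher and ACTA1 and MB lower. The count of 2 lower muscle fibre markers was 1 without bear 1305, 1316 or 1509. Markers of other cells were also summed, and their counts stand beside 19.9% of all genes called lower and 19.6% called higher. Fibroblast markers summed to 2697 to 7386 CPM in summer and 283 to 1865 in winter, with 4 of 7 lower, and 7 without bear 1511. Macrophage and leukocyte markers summed to 72.7 to 122 and 27.5 to 65.5 CPM, with 6 of 10 lower, and endothelial markers to 617 to 945 and 411 to 481 CPM, with 5 of 7 lower and 1 higher, a rise that was not called without bear 1305, 1317, 1511 or 1512. Adipocyte markers lay at 482 to 1635 CPM in summer and 318 to 788 in winter, with 1 of 8 lower and 1 higher, and 3 lower without bear 1511. The rise was of LEP, which was not called in edgeR with the replicate block, in limma voom, with filterByExpr or without bear 1317, 1511 or 1512. None of these markers was at 0 reads in all libraries. HSD11B1 was highest in the libraries of bear 1305 in both seasons, and KLF15 in summer 1317 and winter 1316. The highest summed adipocyte markers were in summer 1316 and winter 1511, and the highest summed fibroblast markers in bear 1511 in both seasons. HSD11B1, CEBPA and KLF15 are also expressed in fat and stromal cells, and the part of these cells in the seasonal levels was not tested.

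**Figure D4:**
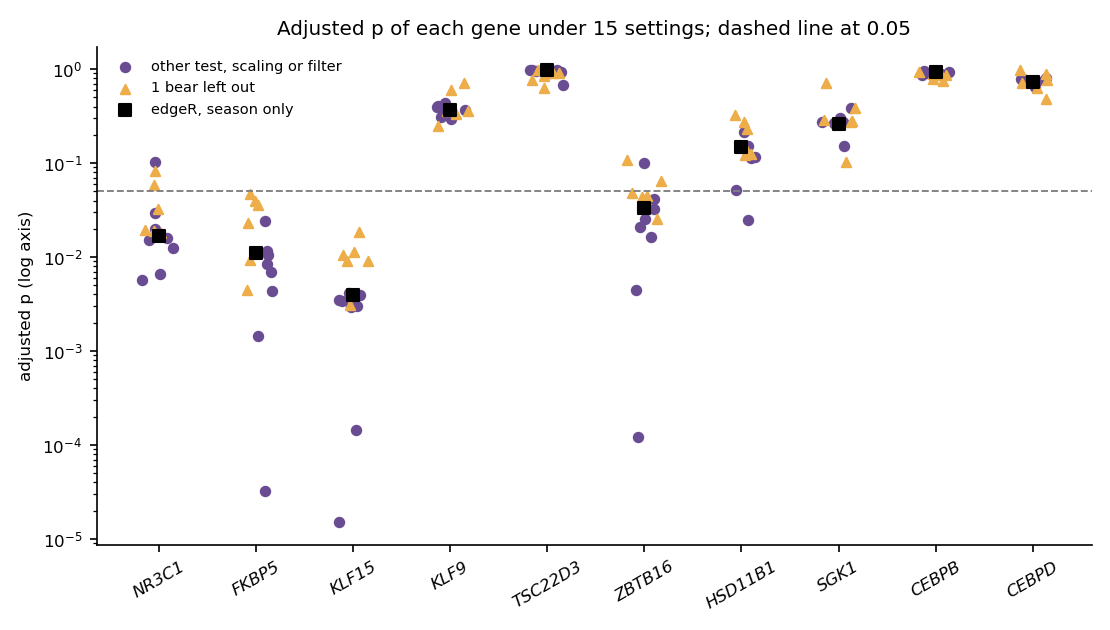
Adjusted p (log axis) of each gene in edgeR with season only (black squares), under other tests, scalings or filters (dots) and with 1 bear left out (triangles), with a dashed line at 0.05. All points of FKBP5 and KLF15 lie below the line, while those of NR3C1 and ZBTB16 reach 0.103 and 0.108.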

How the data were processed

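Muscle RNA of 6 bears, 1 winter and 1 summer library each, was measured by stranded mRNA sequencing. The authors aligned single reads of 50 bases to ASM358476v1 with TopHat, discarded alignments with over 3 mismatches and counted reads per gene with featureCounts in its setting for reads that map opposite to the gene. The deposited values are these raw counts, neither normalized nor filtered. Depth was 16742406 to 32140160 reads.

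Here genes with at least 30 reads in all were kept and scaled by TMM. Winter was compared with summer by the quasi-likelihood test of edgeR 4.0.16 (R 4.3.3) with season as the only term and Benjamini-Hochberg adjustment over all 17290 genes. This fit leaves out the pairing of libraries by bear, which entered only as a replicate block among the alternatives. The adjusted p of ZBTB16, for example, was 0.0334 in the main fit and 0.00445 in edgeR with the block. Standard errors were taken as the log2 fold change over the square root of F, and intervals from the t distribution of the fit. CPM are TMM-scaled, and log2 CPM used a prior count of 2. Alternatives were the bear as a replicate block, DESeq2 1.42.0, limma 3.58.1 voom, RLE, library totals, no filter, filterByExpr and each bear left out. The study's limits were applied to the edgeR fit.

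Libraries of a number came from the same animal. As a check, the departures of the 2 libraries of a bear from their season means had correlations of 0.0903 to 0.344, against a median of −0.0634 and a highest value of 0.142 for different bears, and bear 1509 correlated less with its own library (0.0903) than with one of another bear (0.122). Within a season no library was a copy of another, since the closest pair had a chi-square of 42.3 per gene. The lane of each library was not given in the sources used here, so lane was not tested.

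The members and lists were chosen with earlier results of these data known. Named genes were the members, up to 3 called genes with the largest rise and 3 with the largest fall per list at a mean of at least 1 log2 CPM, 14 genes named whatever their result (SGK3 was not analysed here), and the nearest profiles.

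The fits were tested on simulated data. No sequences were used here, and the count of the steroid supply list is not reported here.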

Additional observations from a re-analysis of the deposited data

Results flagged for a closer look

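In 5 of 92 groups of 6 libraries (46 genes in 2 seasons) the highest or lowest library stood apart from the rest by Dixon's 95% criterion, where chance gives about 1 in 20. None was in one of the 10 members. CPT1B lay at 8.33 log2 CPM in the summer library of bear 1317, above 7.75 to 7.96 in the others, and at 7.98 in the winter library of bear 1509, below 8.50 to 8.78. KLF13 lay at 5.25 log2 CPM in the winter library of bear 1512, below 5.70 to 5.94. CEBPA lay at 2.97 log2 CPM in the summer library of bear 1316, above −0.75 to 0.59, and at 2.24 in the winter library of bear 1511, above −0.90 to 0.09.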

How the results depend on the processing

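Over 139 values of the 10 members under the alternatives, 120 kept their direction and side of the threshold. Library totals left 1 member called higher, and DESeq2 with the replicate block called 2 lower. The limits of the study, applied to the edgeR fit, left 0 higher (at an unadjusted p below 0.05, 3 were higher in edgeR). In DESeq2, the test that the study used, NR3C1 and FKBP5 passed these limits as higher, and the share of all genes that did so was not counted. In edgeR the replicate block changed no call of a member. With each bear left out, 2 to 3 members were called higher and 1 lower. On the edgeR fit the limits of the study lowered the calls over all genes to 2077 higher and 2077 lower. Those of the pathway lists went to 11 higher. The signs that turned were those of values near 0 or of widely spread genes, and the cause was not tested. TSC22D3 had a log2 fold change of 0.0157 in edgeR with the replicate block, 0.003309 in DESeq2, 0.0229 in DESeq2 with that block, 0.01495 in limma voom, 0.003318 with RLE and 0.007184 with filterByExpr, and −0.0663 to 0.102 with 1 bear left out. CEBPB was at −0.0447 with library totals and −0.0666 to 0.103 with 1 bear left out. With 1 bear left out, CEBPD ranged over −0.0187 to 0.608, DUSP1 over −0.80 to 0.00733, FBXO32 over −0.0392 to 0.483 and CEBPA over −1.59 to 0.79. CEBPD gave no value under filterByExpr. Library totals shifted the median of all genes by −0.0788. CEBPD rests on 52 reads in all.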
